A study of Mus musculus with 26 samples.

Results

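LRRK2 is a large protein kinase of the brain whose G2019S form raises kinase activity and causes inherited Parkinson's disease, while a D1994A change in the kinase domain removes that activity. Translation efficiency (TE) compares the ribosome footprints on an mRNA with the amount of that mRNA, so it falls either when ribosomes leave a transcript or when its mRNA rises without more footprints. The striatum, or caudate putamen, receives dopamine neurons and is rich in LRRK2. The transcripts described here had a lower TE in mice carrying G2019S LRRK2 and a higher TE in mice carrying the kinase-dead G2019S/D1994A LRRK2, each against a control labelled non-transgenic. They were 50 of the 8576 transcripts with a value in both comparisons.

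The study profiled ribosome footprints and RNA-Seq in the striatum of C57BL/6 mice at the labelled age of 3 months. The transgenic groups were G2019S LRRK2 (GS LRRK2 TG) and G2019S/D1994A LRRK2 (GS/DA LRRK2 TG), with 2 samples per assay each, and their non-TG control had 3 samples per assay. LRRK2 knockout mice (LRRK2 KO) and wild-type mice (WT) formed a separate comparison, labelled with 2 RNA-Seq and 3 footprinting samples each. The LRRK2 KO and WT means used here were each resolved as 2 libraries per assay, without the third footprinting samples. The transgenes were driven through a Tet-off system by a CaMKII promoter, so they were expressed in forebrain neurons, each from 1 high-copy line, and each sample pooled the tissue of several mice.

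Members were chosen by TE, the log2 ratio of the footprinting mean to the RNA-Seq mean of a group. The difference from the control labelled non-TG had to be at most −0.25 in GS LRRK2 TG and at least 0.18 in GS/DA LRRK2 TG. The first condition alone was met by 449 transcripts (5.24% of 8576) and the second by 346 (4.03%), and both together by 50 (0.583%). The labels give a single set of 3 non-TG control samples per assay for both comparisons. Which of these samples enter each mean is not stated in the labels, so the comparisons are treated as sharing controls. These values chose the members and are given as a description with no test. Klc4, a kinesin light chain, lay nearest to both thresholds from the inside, at −0.251 in GS LRRK2 TG and 0.181 in GS/DA LRRK2 TG. Slc6a7, at −0.260, was the next member inside the first threshold, and Mrpl41 (−0.246) and Camk1 (−0.244) lay just outside it. Zbtb8a, at 0.182, was the next member inside the second threshold, and Pcgf5 (0.1796) and Rab8a (0.176) lay just outside it. The step from members to transcripts left out was thus small on this scale.

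The labels were checked on Lrrk2 itself. Its footprinting mean was 2524 in the control labelled non-TG and 5186 in GS LRRK2 TG, and 1335 and 6017 in the comparison with GS/DA LRRK2 TG. Its RNA-Seq mean was 2105 in the control labelled non-TG and 1882 in GS LRRK2 TG (log2 change −0.16), and 2897 and 2721 with GS/DA LRRK2 TG (−0.09), so Lrrk2 was higher in the transgenic groups in footprinting but not in RNA-Seq. In LRRK2 KO the footprinting mean was 126 against 545 in WT, and the RNA-Seq mean 347 against 1006. The control means of the transgenic comparisons did not agree on Lrrk2. The log2 ratio of the control footprinting mean set against GS LRRK2 TG to that set against GS/DA LRRK2 TG had a median of −0.34 over 8576 transcripts (5th to 95th percentile −0.44 to −0.22), and for Lrrk2 it was 0.92, the highest of all. In RNA-Seq the same ratio was −0.46 for Lrrk2 and −0.13 over all transcripts. The Lrrk2 footprints thus go against the non-TG label of the control set against GS LRRK2 TG, whose single libraries were not recovered, and the cause was not tested. Every value and direction given for GS LRRK2 TG rests on that control as labelled. The paper reports that a part of the lysate went to a Western blot to check that the transgene was expressed. The Lrrk2 RNA-Seq means did not rise in either transgenic group, so by themselves they do not bear out the transgenic labels in that assay. The RNA-Seq changes and TE differences of both transgenic groups rest on those labels as given, and the cause was not tested. Markers of striatal projection neurons had a summed footprinting mean of 155099 in the control labelled non-TG and 143845 in GS LRRK2 TG, and 206041 and 170491 in the comparison with GS/DA LRRK2 TG, led by Ppp1r1b. Their summed RNA-Seq mean was 151327 and 142346, and 163153 and 143696. Their part in the members' values was not tested.

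The deposited values are means over the libraries of a group. For 10 of the 12 group means, the reads of 2 single libraries could be recovered. The non-TG control means of the comparison with GS LRRK2 TG were not recovered in either assay. The recovered libraries carry no replicate number and are called shallower and deeper after their depth. They held 7500252 to 19299345 footprints and 8696465 to 14546606 RNA-Seq reads in the transgenic comparisons. The deeper non-TG control footprinting library held 15053099 reads. Only the deepest control footprinting sample in the paper has that many mapped reads, so this library can come only from that sample.

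A TE difference can lie in footprints, in RNA-Seq or in both. In GS LRRK2 TG the members' median TE difference was −0.33 (range −0.64 to −0.25), with a median change of −0.07 in footprinting and 0.29 in RNA-Seq. The RNA-Seq change was above 0 in 50 of 50 members (44.3% of all transcripts) and was the larger of both changes in 38 of 50 (60.7% of all transcripts). In GS/DA LRRK2 TG the median TE difference was 0.24 (range 0.18 to 0.64), with medians of 0.03 in footprinting and −0.21 in RNA-Seq. There the RNA-Seq change was below 0 in 43 of 50 members (35.3% of all transcripts) and the larger of both in 37 of 50 (59.8% of all transcripts). It was the larger in both comparisons in 29 of 50 members (37.4% of all transcripts). The rule used these contrasts, so nothing is read from the shares. The same holds for the control means themselves, whose log2 ratio between the comparisons had a median of −0.31 in the members' footprints (−0.34 over all transcripts) and −0.32 in their RNA-Seq (−0.13 over all). The shares also depended on single libraries. The RNA-Seq libraries of a group differed widely, as described below, so leaving 1 of them out shifted the group mean by construction. When members were chosen again without 1 library at a time, which was not possible for the control set against GS LRRK2 TG, there were 61 to 249 of them, and the share with the larger RNA-Seq change ran from 36.5% (without the deeper non-TG control RNA-Seq library) to 98.2% in GS LRRK2 TG, and from 32.8% (without the shallower GS/DA LRRK2 TG footprinting library) to 96% in GS/DA LRRK2 TG.

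**Figure D1:**
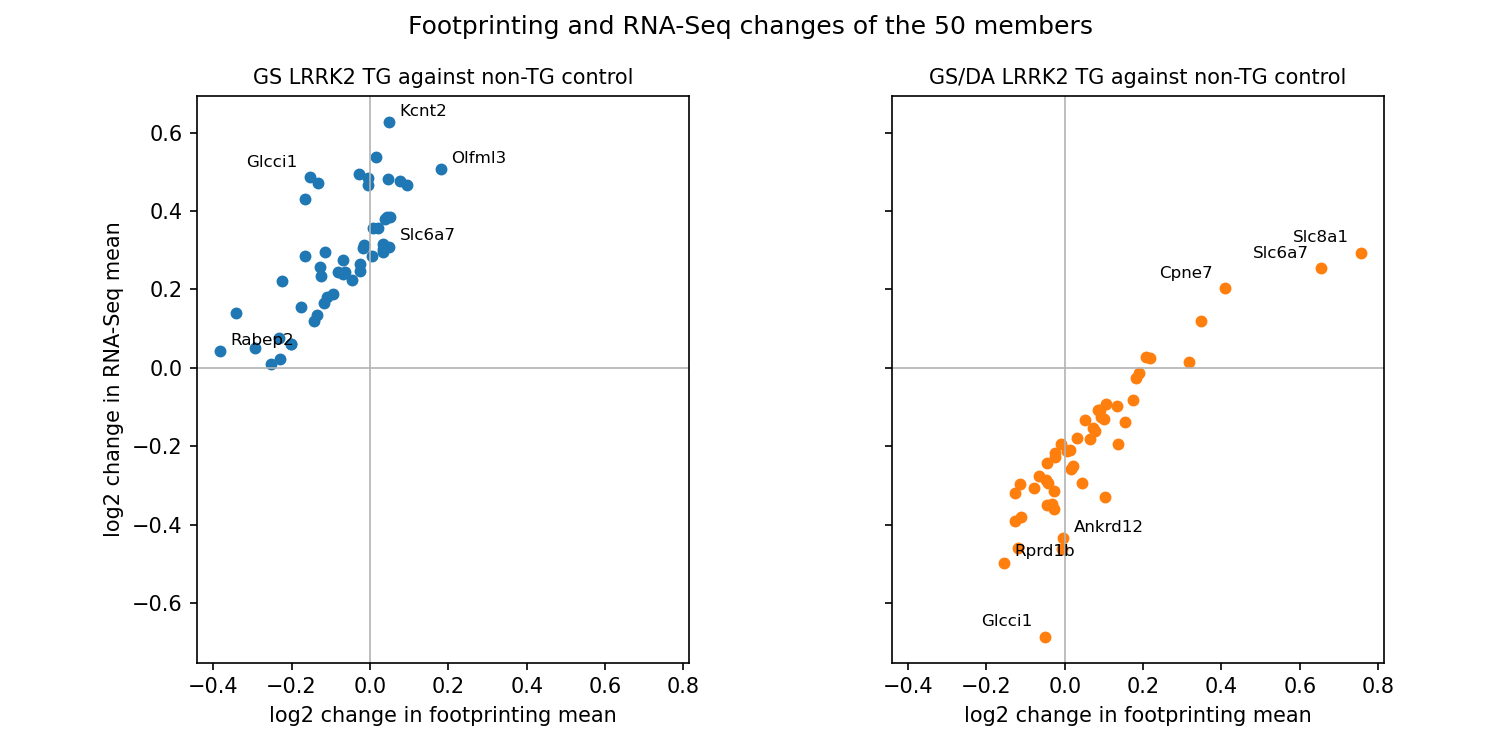
Change in the footprinting mean (x axis, log2) and in the RNA-Seq mean (y axis, log2) of the 50 members, for GS LRRK2 TG on the left and GS/DA LRRK2 TG on the right, each against its control labelled non-TG; each point is 1 transcript. On the left all 50 points lie above 0 on the RNA-Seq axis, and on the right 43 lie below 0, while Slc8a1 and Slc6a7 lie far to the right at footprinting changes of 0.76 and 0.65.

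Glcci1 (uc009axn.2), a gene induced by glucocorticoids, had the lowest TE difference in GS LRRK2 TG, −0.64, and the highest in GS/DA LRRK2 TG, 0.64. Its normalized footprints were 963 and 864 in the recovered non-TG control libraries, 953 and 813 in GS/DA LRRK2 TG, and 539 and 794 in GS LRRK2 TG, whose own mean of the control labelled non-TG was 742. The footprints of GS/DA LRRK2 TG and its control overlapped, and the control mean lay between both GS LRRK2 TG libraries. Its RNA-Seq reads were 338 and 8522 in non-TG control, 275 and 5230 in GS/DA LRRK2 TG, and 179 and 7203 in GS LRRK2 TG. Both RNA-Seq libraries of a group thus differed far more from each other than the groups did. The mean of the control labelled non-TG set against GS LRRK2 TG was 2635.

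The same contrast between the RNA-Seq libraries of a group ran through the transgenic comparisons. For means above 300, log2 ratios of one RNA-Seq library to the other had an SD of 1.44 in non-TG control, 1.71 in GS LRRK2 TG and 1.70 in GS/DA LRRK2 TG, while for footprinting libraries the SD was 0.34, 0.38 and 0.36. The ratio followed the GC content of the coding sequence (CDS). Across transcripts, which are not independent replicates, Spearman's rho of CDS GC with the log2 ratio of the shallower to the deeper library was 0.78 in non-TG control, 0.79 in GS LRRK2 TG and −0.80 in GS/DA LRRK2 TG. For footprinting libraries rho was 0.44, −0.31 and 0.47 in the same order. In each group 1 RNA-Seq library is therefore called GC-rich, since it was relatively higher at GC-rich CDS, and the other AT-rich, names chosen after seeing the data. The names describe libraries and not single transcripts. Glcci1, with a CDS GC of 57.5%, and Ankrd12, with 41.3%, were both higher in the AT-rich library.

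The recovered non-TG control libraries make up the control mean that the rule used for GS/DA LRRK2 TG, so their values are a description. In non-TG control 41 of 50 members were higher in the AT-rich than in the GC-rich library (49.7% of 8536 transcripts), with a median difference in log2(reads + 10) of 1.24 against −0.01 over all transcripts. This difference exceeded 4 in 8 members, out of 41 transcripts past that value (0.48% of transcripts). The median CDS GC was 53.6% in 48 matched members, 52.8% in all 8438 matched transcripts and 43.2% in the 37 matched transcripts whose libraries differed by more than 4. Whether the library difference set the members' values in GS LRRK2 TG was not tested.

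When the RNA-Seq change in GS/DA LRRK2 TG was taken between like libraries, the members' values differed between the pairs. Between the AT-rich libraries the members' median RNA-Seq change was −0.33 (0.05 over all transcripts), and with that pair 47 of 50 members had a TE difference of at least 0.18 (16.8% of all transcripts). Between the GC-rich libraries the median change was −0.01 (−0.00 over all transcripts), and 15 of 50 members reached 0.18 (23.6% of all transcripts). Both pairs restate values that the rule used, so nothing is read from these counts. No such pairs could be formed for GS LRRK2 TG, because its non-TG control libraries were not recovered.

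**Figure D2:**
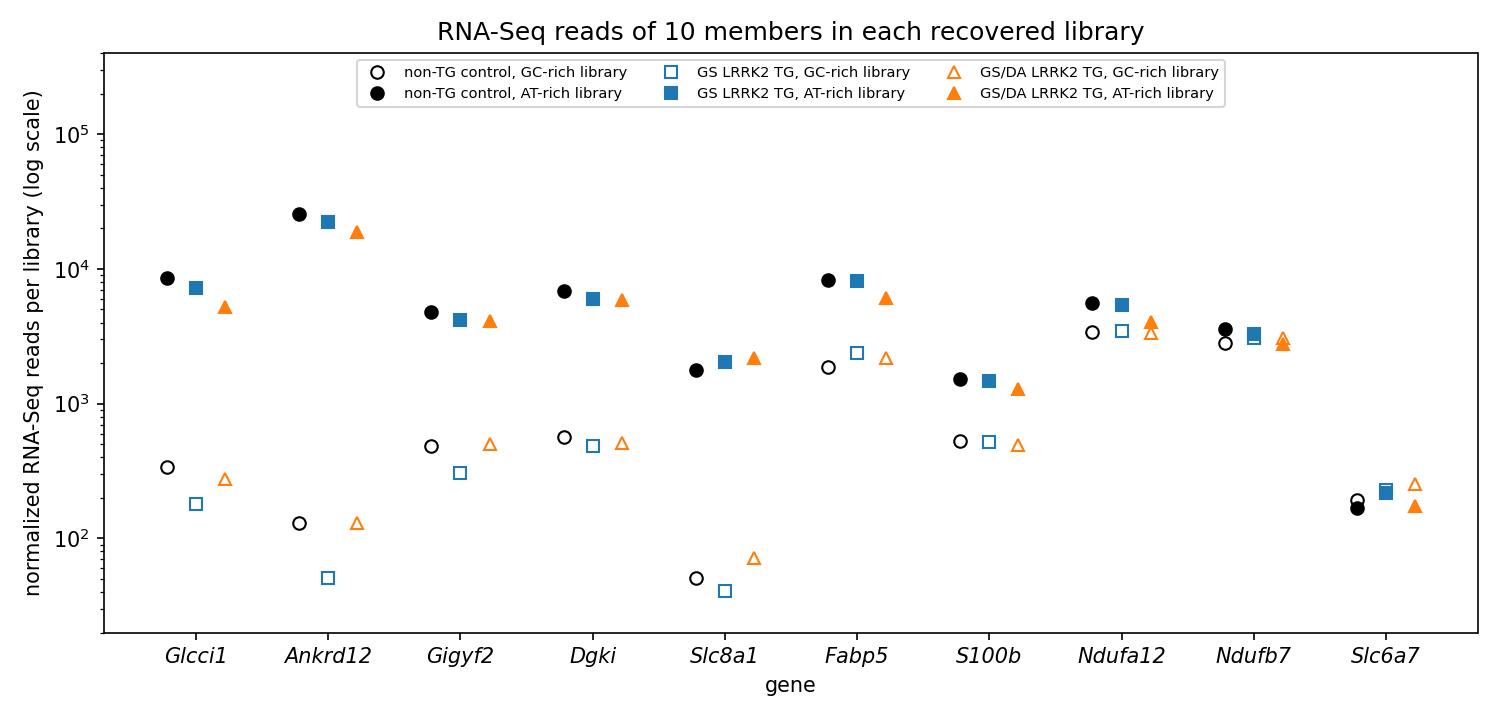
Normalized RNA-Seq reads (log scale) of 10 members in each recovered library of non-TG control (circles), GS LRRK2 TG (squares) and GS/DA LRRK2 TG (triangles), where the control libraries are those set against GS/DA LRRK2 TG and the tables were scaled separately; open symbols are the GC-rich and filled symbols the AT-rich library of each group. For Glcci1 the open symbols lie between 179 and 338 and the filled ones between 5230 and 8522, whereas for Slc6a7 all 6 lie between 167 and 252.

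Slc8a1 (uc008drq.1), the plasma membrane sodium/calcium exchanger NCX1, reached a TE difference of 0.46 in GS/DA LRRK2 TG by another route, a rise in footprints. Its footprints were 426 and 591 in the non-TG control libraries and 772 and 947 in GS/DA LRRK2 TG, with no overlap. The change was 0.86 between the shallower and 0.68 between the deeper libraries. Its RNA-Seq reads were 51.0 and 1788 in non-TG control and 72.1 and 2182 in GS/DA LRRK2 TG, a rise in each pair. In GS LRRK2 TG its TE difference of −0.49 lay in RNA-Seq, with footprints of 659 and 357 on either side of the control mean of 510. Its RNA-Seq reads in GS LRRK2 TG were 40.6 and 2047, also on either side of the control mean, which was 746.

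Slc6a7, a proline transporter of nerve terminals, showed the same split as Slc8a1. Its footprints were 234 and 286 in non-TG control and 364 and 454 in GS/DA LRRK2 TG, again with no overlap. Its RNA-Seq reads were 191 in the GC-rich and 167 in the AT-rich library of non-TG control, and 252 and 175 in those of GS/DA LRRK2 TG. Among all 50 members, both GS/DA LRRK2 TG footprinting libraries lay above both control libraries in 11 (12% of 8427 transcripts) and below them in 2, Rprd1b and Bbs9 (12.2%). In GS LRRK2 TG the control footprinting mean lay between both libraries in 31 of 50 members (59.6% of 8569 transcripts) and above both in 16 (20.8%).

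Slc8a1 belongs to a larger set of genes that move calcium. Of the 30 listed calcium exchangers, pumps and store channels, 20 had values, and Slc8a1 was the only member (0.583% of all transcripts were members). The list's median TE difference was −0.04 in GS LRRK2 TG (0.02 over all transcripts) and 0.00 in GS/DA LRRK2 TG (−0.05 over all). At the other end of the range in GS LRRK2 TG stood Ryr3 (0.42) and Itpr1 (0.42), calcium release channels of internal stores, and Atp2b1 (0.31), a plasma membrane calcium pump. The exchangers closest to Slc8a1, Slc8a2 and Slc8a3, had TE differences of −0.01 and −0.21 in GS LRRK2 TG and 0.179 and 0.02 in GS/DA LRRK2 TG. Atp2b4, another calcium pump, had the list's highest footprinting change in GS/DA LRRK2 TG, 0.79, beside 0.64 in RNA-Seq. Its TE difference was 0.14 there and −0.17 in GS LRRK2 TG.

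Among members with all 8 transgenic group means of at least 500, Ankrd12, an ankyrin repeat protein of the nucleus, had a TE difference of −0.43 in GS LRRK2 TG and 0.43 in GS/DA LRRK2 TG. It had the widest gap between RNA-Seq libraries, with 130 and 25533 reads in non-TG control, 131 and 18850 in GS/DA LRRK2 TG, and 50.4 and 22462 in GS LRRK2 TG, whose own control mean was 8067. Its footprints were 1139 and 1387 in non-TG control and 1017 and 1503 in GS/DA LRRK2 TG, and overlapped. In GS LRRK2 TG, whose table was scaled separately, they were 1096 and 855, on either side of the control mean of 945.

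Gigyf2, which binds a cap-binding protein that represses translation, had TE differences of −0.45 and 0.33. Its RNA-Seq reads were 485 and 4759 in non-TG control, 501 and 4080 in GS/DA LRRK2 TG and 304 and 4175 in GS LRRK2 TG, whose own control mean was 1836. Its footprints were 908 and 863 in non-TG control and 1023 and 921 in GS/DA LRRK2 TG, without overlap, and 622 and 690.0 in GS LRRK2 TG, both below their own control mean of 737. Its deposited 5′UTR folding energy, the lowest over the isoforms of a gene, was −572 kcal/mol, the lowest of the members. It is not that of the annotated transcript shown further on, whose 5′UTR has 197 bases. Dgki, a diacylglycerol kinase, had TE differences of −0.33 and 0.22, with footprints of 2937 and 2711 in non-TG control and 2938 and 2762 in GS/DA LRRK2 TG.

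Fabp5, a fatty acid binding protein, had RNA-Seq reads of 1883 and 8258 in non-TG control, 2190 and 6080 in GS/DA LRRK2 TG and 2378 and 8098 in GS LRRK2 TG, whose own control mean was 3761. Its footprints were 2653 and 3223 in non-TG control and 2935 and 3119 in GS/DA LRRK2 TG, and overlapped. Between non-TG control and GS/DA LRRK2 TG its GC-rich library rose by 0.22 and its AT-rich library fell by 0.44. Nedd8, a ubiquitin-like modifier, did likewise at 0.26 and −0.46. Erp29, a protein of the endoplasmic reticulum, changed by 0.14 and −0.21 in these libraries. Thus for these 3 genes the direction of the RNA-Seq change depended on the library pair.

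Of the 78 respiratory chain transcripts, 2 were members (0.583% of all transcripts), Ndufa12 and Ndufb7 of complex I. The list's median TE difference was −0.04 in GS LRRK2 TG and 0.02 in GS/DA LRRK2 TG. Ndufa12 had RNA-Seq reads of 3375 and 5593 in non-TG control, 3370 and 4038 in GS/DA LRRK2 TG and 3475 and 5417 in GS LRRK2 TG, whose own control mean was 3651. Atic, an enzyme of purine synthesis, differed more in footprinting (0.18) than in RNA-Seq (−0.08) in GS/DA LRRK2 TG, with footprints of 804 and 832 in non-TG control and 928 and 920 in GS/DA LRRK2 TG. Rps6kc1, a protein with a kinase-like domain, had footprints of 664 and 641 against 791 and 868.

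Beside the 0.583% of all transcripts that were members, solute carriers gave 3 of 139, Slc8a1, Slc6a7 and the sugar transporter Slc50a1. Ankyrin repeat genes gave 2 of 32, Ankrd12 and Ankra2, and potassium channel subunits gave 1 of 38, Kcnt2, a sodium-activated channel with the largest RNA-Seq change of the members in GS LRRK2 TG (0.63). Of the 15 measured glucocorticoid-responsive genes, Glcci1 was the only member (0.583% of all transcripts were), and their median TE difference was 0.08 in GS LRRK2 TG and −0.01 in GS/DA LRRK2 TG.

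Of the 76 transcripts in the 9 lists of cell type markers, 1 was a member (0.583% of all transcripts were), S100b, a calcium-binding protein of astrocytes, at −0.34 and 0.22. The 12 astrocyte markers had a median TE difference of 0.01 in GS LRRK2 TG and −0.03 in GS/DA LRRK2 TG, and their summed footprinting mean was 33128 in the control labelled non-TG and 34711 in GS LRRK2 TG, and 41242 and 43748 with GS/DA LRRK2 TG, led by Aldoc. Their summed RNA-Seq mean was 21496 and 22524, and 22287 and 23967, in the same order. The 7 measured of 13 markers of cortical projection neurons, led by Nrgn, had a summed RNA-Seq mean of 11959 in the control labelled non-TG and 9368 in GS LRRK2 TG, but 11393 and 13771 with GS/DA LRRK2 TG. Their summed footprinting mean was 17942 and 17971, and 22623 and 22512. Globins and other erythroid genes, of which 3 of 10 had values, led by Hba-a2, had a summed RNA-Seq mean of 25253 in the control labelled non-TG and 29369 in GS LRRK2 TG, and 28034 and 24007 with GS/DA LRRK2 TG. Their summed footprinting mean was 15389 and 14458, and 22037 and 17634, and their median TE difference −0.49 and −0.10. In LRRK2 KO their summed RNA-Seq mean was 6465 against 7566 in WT, and their summed footprinting mean 2126 against 3370. Their median TE difference there was −0.35. The part of these cells in the members' values was not tested. The choroid plexus is tissue that can be carried along in dissection. Of 16 choroid plexus markers, 3 had values, Enpp2, Ttr and Clic6, and their summed footprinting mean was 8252 in the control labelled non-TG and 4452 in GS LRRK2 TG, and 15699 and 8240 in the comparison with GS/DA LRRK2 TG, but 935 in WT and 944 in LRRK2 KO. Their summed RNA-Seq mean was 7516 and 3345 in the first of these comparisons and 11973 and 7913 in the second. The footprinting change in GS LRRK2 TG and in GS/DA LRRK2 TG was −2.45 and −1.53 for Ttr, −0.20 and −0.37 for Enpp2, and −0.31 and −0.35 for Clic6. None of the members was a choroid plexus marker, and the part of this tissue in the members' values was not tested. In tissue samples, fewer cells of a type and less RNA per cell cannot be told apart.

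The LRRK2 KO comparison used other samples than the rule and is independent of it. Its recovered libraries held 2862310 to 6051183 footprints and 3132940 to 10879892 RNA-Seq reads. All 50 members had values there, and their median TE difference was 0.03 against 0.02 over all 9561 transcripts. It was below 0 in 23 of 50 members (47% of all transcripts), at least 0.25 in 13 (18.1%) and at most −0.25 in 5 (15%), which were AK172428, Sergef, Cpne7, Spg7 and Ndufb7. Their median change was 0.03 in footprinting and 0.01 in RNA-Seq. Without the shallower WT footprinting library the median TE difference was −0.11, and without the deeper one 0.12. The members' median log2 TE was −0.64 in WT (−0.64 over all transcripts). In the control labelled non-TG set against GS LRRK2 TG it was −0.84 (−0.17 over all transcripts). In that set against GS/DA LRRK2 TG it was −0.81 (0.04 over all transcripts). These control values are part of the rule's differences, and nothing is read from them.

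**Figure D3:**
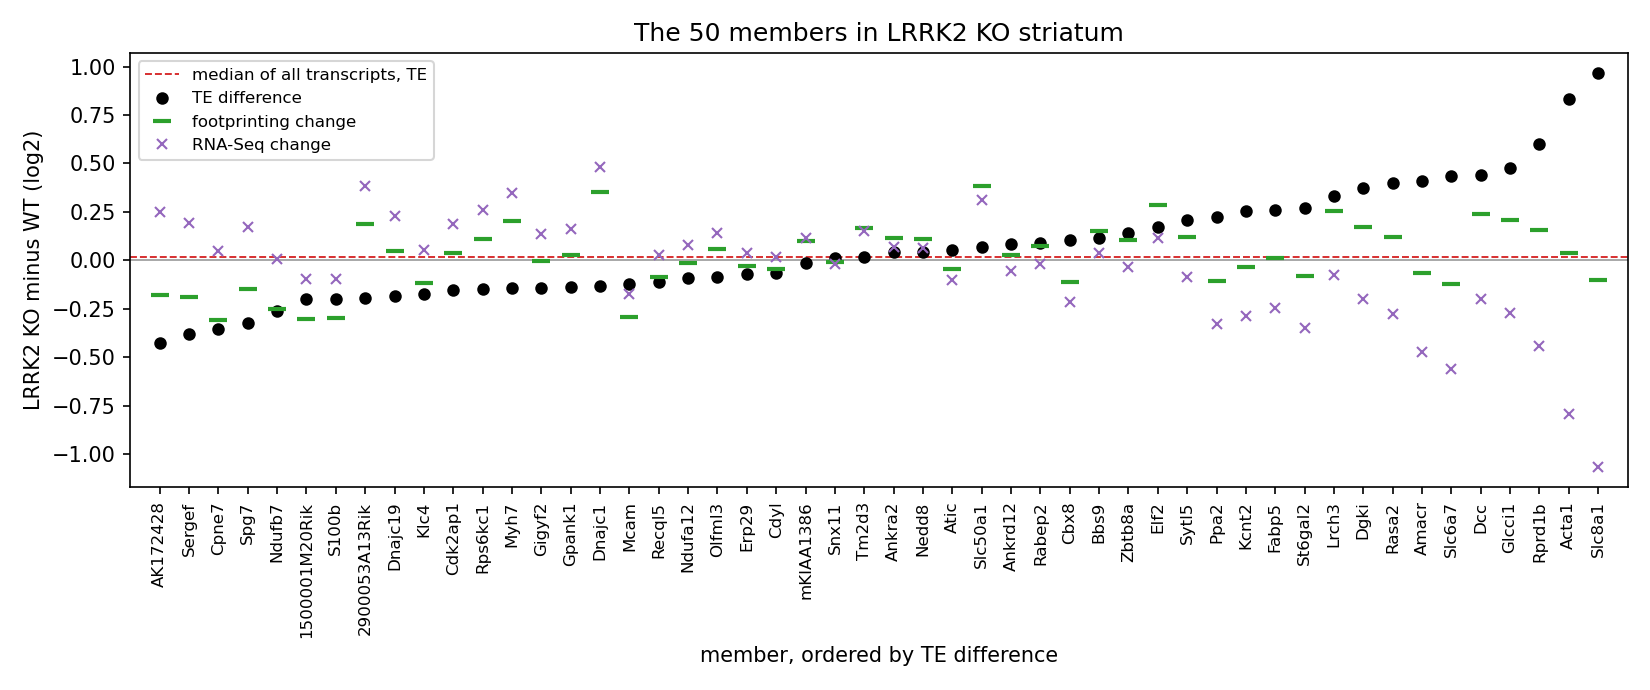
LRRK2 KO minus WT (y axis, log2) of each of the 50 members (x axis, ordered by TE difference): TE difference (black points), footprinting change (green bars) and RNA-Seq change (purple crosses), from 1 mean per group; the dashed line is the median TE difference of all transcripts, 0.02. The TE differences run from −0.43 for AK172428 to 0.97 for Slc8a1, whose RNA-Seq change is −1.07.

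In the limma fit over the recovered KO and WT libraries, 0 of 50 members had a TE difference with an adjusted p under 0.05, as did 0 of all 9539 transcripts (0%). At an unadjusted p under 0.05 there were 0 members and 4 transcripts (0.0419%). The fit treats the libraries as unpaired. With libraries paired by depth as a block, limma gave 2 members, Acta1 and Rprd1b, and 186 transcripts (1.95%) at an unadjusted p under 0.05, and again 0 at an adjusted one. A difference in single members was thus not detectable here, which does not show that it is absent. The same fit called 0 members in footprinting and 0 in RNA-Seq, where 17 (0.178%) and 9 (0.0943%) of all transcripts had an unadjusted p under 0.05.

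Rprd1b, a regulator of RNA polymerase II, had the lowest p of the members in that fit, with a TE difference of 0.55 (SE 0.30, limma adjusted p = 1). Its RNA-Seq reads were 166 and 141 in WT and 109 and 117 in LRRK2 KO, and its footprints 148 and 139 against 169 and 151. Neither assay overlapped between its groups. Glcci1 followed at 0.44 (SE 0.38, limma adjusted p = 1), with footprints of 180 and 234 in WT and 225 and 253 in LRRK2 KO, and RNA-Seq reads of 303 and 203 against 199 and 220. Both assays overlapped between its groups. Cpne7, a calcium-dependent membrane binding protein, came next at −0.30 (SE 0.28, limma adjusted p = 1). Its footprints were 65.3 and 63.1 in WT and 53.2 and 50.7 in LRRK2 KO, without overlap. Its RNA-Seq reads were 67.5 and 71.8 in WT and 67.5 and 76.4 in LRRK2 KO, and overlapped. Rprd1b, Glcci1 and Cpne7 were named for their p in these same libraries, so nothing is read from a lack of overlap. The share of all transcripts without overlap in LRRK2 KO is not given here.

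Slc8a1 had the highest TE difference of the members in the KO means, 0.97, but only 0.67 in the fit (SE 0.92, limma adjusted p = 1). Its RNA-Seq reads were 411 and 118 in WT and 143 and 110 in LRRK2 KO, so 1 WT library stood apart. Its footprints were 219 and 463 in WT and 196 and 440 in LRRK2 KO, and overlapped. Acta1, an actin of skeletal muscle, had the next highest value, 0.83, and its RNA-Seq reads were 2871 and 1058 in WT against 1318 and 951 in LRRK2 KO. Reads of Acta1 can be split with near-identical actin genes, and those of Myh7 with Myh6, so both are uncertain.

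Sequence features were not used by the rule and are given with no test. The members' median 5′UTR folding energy, taken as the minimum over isoforms, was −70.9 kcal/mol (−91.2 over all transcripts), from −572 for Gigyf2 to −1.9 for Fabp5. Their median CDS length was 1638 bases (1470 over all). An ATG upstream of the start codon occurred in 22 of 45 members (51.1% of all transcripts).

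A purine at position −3, the base that most favors initiation, was present in 40 of 45 members (86.5% of all transcripts), and a G at position +4 in 28 of 45 (52.6%). The sequences below, from the GENCODE annotation of build mm9, run from 9 bases before the start codon to 3 after it, with the start codon in capitals, for members named above.
Glcci1: ggagccaccATGtcc
Ankrd12: agctataaaATGccc
Gigyf2: cggagaagaATGgca
Dgki: cagccgcggATGgat
Ndufa12: gggcggaccATGcag
Ndufb7: agagtagccATGggg
Glcci1 lies on the plus strand of chr6:8459600-8547548, Gigyf2 on the plus strand of chr1:89223573-89347371 and Ankrd12 on the minus strand of chr17:66316841-66426429. Dgki alone of these 6 lacked a purine at position −3.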

How the data were processed

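Ribosome footprints and RNA-Seq reads were mapped by the authors to mm9 with TopHat2 2.0.11 and Bowtie2 2.2.2 (CASAVA 1.8 is also named in the submitters' processing notes), counted in the CDS and normalized with DESeq 1.20. The deposited signal is the mean of normalized reads over the libraries of a group, with no SD. The deposited 5′UTR folding energy is a score in kcal/mol, the minimum over the isoforms of a gene. The authors' TE, TE difference and z-score columns hold their own comparisons and were not used. The members and gene lists were chosen with earlier results of these data known.

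TE differences were recomputed from the means without a pseudocount. A mean of 2 libraries is a sum of whole reads times 2 fixed steps, and these steps were found from recurring differences between means. A solution had to resolve at least 90% of the means, a requirement added after a wrong pair of steps was accepted in simulated data. It resolved 98.5% to 99.9% of the transcripts in 10 columns, against at most 1.15% after the means were shifted by a constant, and was tested on simulated data. The mean that the recovery did not resolve in either assay is that of the non-TG control set against GS LRRK2 TG. LRRK2 KO was tested with limma 3.58.1 in R 4.3.3, as a genotype by assay interaction on log2(normalized reads + 10), adjusted by Benjamini-Hochberg over 9539 transcripts. Fold changes on that scale are understated for low transcripts. Nothing in the labels shows separate animals beyond pools, so p-values measure the spread between these libraries.

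Named genes were Glcci1 and Slc8a1, the 10 members with the lowest GS and the 10 with the highest GS/DA difference among members with all means of at least 500, the 3 with the lowest p in LRRK2 KO, those next to the thresholds and members of the lists or, for calcium genes, the ends of their range. Acta1, Myh7, Atp2b4, Slc8a2, Slc8a3, Bbs9, Sergef, Spg7 and the choroid plexus markers were named after their values were seen. CDS features came from GENCODE vM1 by symbol and matched 48 of 50 members. Alternatives were other filters, a pseudocount, centring, other thresholds, single libraries and, for the fit, other scalings and blocks. The third LRRK2 KO and WT footprinting samples and the ventral midbrain samples were not used here.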

Additional observations from a re-analysis of the deposited data

How the results depend on the processing

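No paired analysis was possible because the columns carry no replicate numbers from the labels. The mapped read counts in the paper do not settle which sample each WT library or each LRRK2 KO RNA-Seq library came from. A library-pair block by depth instead, shallower with shallower, called 0 of 50 members in the limma interaction, as did crossed pairs. At an unadjusted p under 0.05 there were 2 members and 186 of 9539 transcripts with this block, 0 and 0 when crossed, and 0 members and 4 transcripts without it. Across transcripts, which are not independent replicates, the library ratios of WT and LRRK2 KO had a Spearman's rho of 0.76 in footprinting and 0.69 in RNA-Seq. Over the alternatives of that fit 0 members were called in TE, footprinting or RNA-Seq.

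The 50 members became 27 with a log2 of every group mean of at least 8, 15 with at least 9, 97 with TE differences centred on the table median, 113 with thresholds of −0.20 and 0.13, and 22 with −0.30 and 0.23. With the lower of these filters, the RNA-Seq change was the larger in GS LRRK2 TG in 92.6% of members, and the median CDS GC was 50.7%. With the higher filter, the RNA-Seq change was the larger in GS/DA LRRK2 TG in 86.7%, and only 4 members also passed in the LRRK2 KO comparison (Acta1, Dgki, Fabp5 and Ndufa12, the reads of Acta1 being uncertain), where the TE difference was below 0 in 1 (25%) and its median was 0.32. With this filter the median folding energy of the 15 was −37.4 kcal/mol and their median CDS length 1064 bases. With the stricter thresholds the median CDS length was 1864 bases. Fewer transcripts pass these filters by construction, and the cause of the other shifts was not tested.

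Leaving out 1 recovered library of the transgenic comparisons at a time, 12 in all and none from the control set against GS LRRK2 TG, gave 61 to 249 members. Where an RNA-Seq library of the GS/DA LRRK2 TG comparison was left out, a GC-rich or AT-rich library alone was set against a mean of both kinds. In GS LRRK2 TG it was set against a control mean that was not recovered. Such settings shift the RNA-Seq change by construction. The share with the larger RNA-Seq change ran from 36.5% to 98.2% in GS LRRK2 TG and from 32.8% to 96% in GS/DA LRRK2 TG. For the values in LRRK2 KO, the recovered WT and LRRK2 KO libraries were also left out 1 at a time, giving 20 settings. Over these the share below 0 in LRRK2 KO ran from 40% to 66.1% and the median TE difference from −0.12 to 0.12, both signs. With the AT-rich RNA-Seq pair alone, chosen after seeing the data, there were 139 members, with shares of 57.6% in GS LRRK2 TG and 88.5% in GS/DA LRRK2 TG. With the GC-rich pair alone there were 52 members. The KO median was 0.26 with the GC-rich pair (33.3% below 0) and −0.07 with the AT-rich pair (59.1% below 0). The cause was not tested. A pseudocount of 10 gave 45 members and 1 transcript per symbol gave 50.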
